A study of Brassica rapa with 12 samples.

Results

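A group of 46 genes was described whose transcripts were higher after heat in wild-type Chinese cabbage (Brassica rapa) and not, or hardly, in plants with an edited GIGANTEA gene. The study measured messenger RNA in whole plants grown for 2 weeks on 1/2MS medium and then kept at 22 °C or moved to 37 °C for 1 h of heat. Wild-type plants were of the cultivar Chiifu, listed as early flowering. The gi plants were GIGANTEA-edited, of the same cultivar and listed as late flowering. Each of the 4 groups (Chiifu at 22 °C, Chiifu at 37 °C, gi at 22 °C and gi at 37 °C) had 3 libraries. The labels do not say how many edited lines the gi plants came from, whether a library held 1 plant or several, or at what time of day plants were taken. Replicates may therefore be technical in part, and the p-values cover no more than the library-to-library spread seen here.

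Members were chosen by their own values. Levels are in CPM, the counts of a gene divided by all gene counts of its library and by the TMM factor and set to the usual common total. The TMM factor evens out differences in library composition. A member had a Chiifu mean of at least 5 CPM at 37 °C, at least 4 times the Chiifu mean at 22 °C, and its lowest Chiifu library at 37 °C lay above its highest at 22 °C, an order found in 22.9% of all genes tested. Its gi mean at 37 °C was at most 1.5 times its gi mean at 22 °C. Of 47249 gene IDs, 28846 passed the filter on low counts and 46 met the rule. A stretch of chromosome A03 (BraA03g049360.3.5C to BraA03g054150.3.5C) was left out beforehand, and 1 gene in it, BraA03g053060.3.5C, would have met the rule. Because the rule used heat in both genotypes, those changes and the difference between them are descriptions of the members and not evidence.

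The GIGANTEA protein belongs to the circadian clock of plants and takes part in the control of flowering by day length. A sudden rise in temperature activates heat shock transcription factors, which raise the transcripts of chaperones and other protective proteins within minutes to hours, and clock components are known to influence how strongly plants respond to stress at different times of day. The files do not pair the gene IDs with names, and 0 of them matched the gene table at hand (CAAS_Brap_v3.01), so no member is given a function, a sequence or coordinates. For the same reason no check of the GIGANTEA transcript was made, and the genotypes rest on the labels.

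Each library held between 36778289 and 57777477 counts in genes. One library stood apart. In Chiifu at 22 °C replicate 1, 19.1% of the 16921 genes with a group mean of at least 5 CPM lay more than 2 times above or below the mean of the other replicates of the group, against 1.34% to 7.83% in the other 11 libraries. This library held the lowest of the 3 Chiifu values at 22 °C for 30 of the 46 members (65.2%) and for 41.8% of all genes tested. Among the other genes that met the Chiifu parts of the rule the share was 47.9%. Several of the counts and levels that rest on it are given with and without it.

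Summed over the members, the level was low in unheated Chiifu, high in heated Chiifu and intermediate in gi. The rule used these same values, so the order of the sums is a description only. In heated Chiifu the median member had a mean of 50.5 CPM and the highest 3775 CPM, so the sums rest mostly on the most abundant members. Taken singly, 9 of the 46 members had all 6 gi libraries between the Chiifu groups, as 0.263% of all genes tested did. Their summed level at 22 °C was 827, 2840.1 and 2673 CPM in the 3 Chiifu libraries and 3359, 4185 and 3805 CPM in the gi libraries. At 37 °C the sum was 15303, 12450.0 and 12908 CPM in Chiifu and 3679, 3929 and 3430.4 CPM in gi. The gi libraries at the 2 temperatures overlapped, and all 6 lay above the Chiifu libraries at 22 °C and below those at 37 °C. As group means the sums were 2113 ± 1117 CPM (SD, n = 3) and 13554 ± 1532 CPM in Chiifu, and 3783 ± 413 and 3679 ± 249 CPM in gi. Without Chiifu at 22 °C replicate 1 the unheated Chiifu mean was 2756 ± 118 CPM (SD, n = 2). BraA01g002770.3.5C alone made up much of these sums, and without it all gi libraries still lay between the Chiifu groups (719 to 1927 CPM in unheated Chiifu, 2197 to 3001 CPM in unheated gi, 2611 to 3021 CPM in heated gi and 8330 to 10860.4 CPM in heated Chiifu). The order of the gi means, which overlapped, turned (2730.2 CPM unheated and 2775 CPM heated). The members took 0.944% to 1.02% of all gene counts in Chiifu at 37 °C. In whole plants a lower level can mean fewer cells of a type or less RNA per cell, which cannot be told apart.

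**Figure D1:**
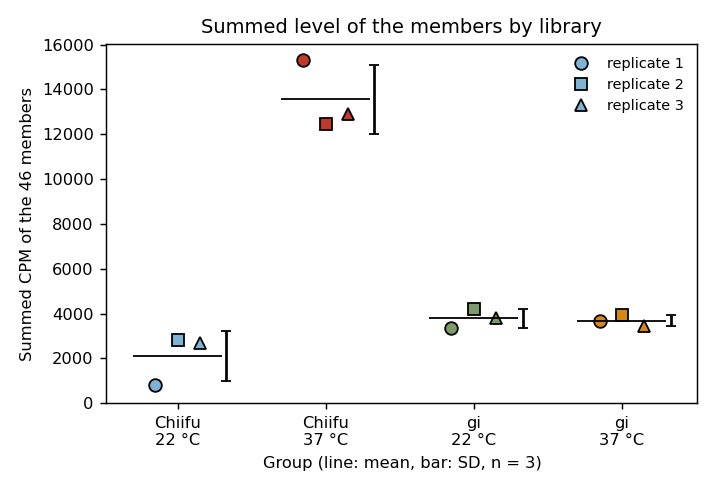
Summed CPM of the 46 members in each library (y axis) by group (x axis), with circles, squares and triangles for replicates 1 to 3, lines for means and bars for SD (n = 3). Chiifu at 37 °C lay between 12450.0 and 15303 CPM and every other library at or below 4185 CPM.

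The ratio of the mean at 37 °C to that at 22 °C had a median of 6.07 over the members in Chiifu and 1.105 in gi. The Chiifu ratio was under 6 for 22 members and 8 or more for 14. In gi, 17 members had a ratio of 1.2 to 1.5, 8 had a ratio under 0.8, and 19 had a lower mean at 37 °C than at 22 °C. On the model's log2 scale the median member changed by 2.60 in Chiifu and 0.13 in gi, against -0.11 and -0.07 for all genes tested. Without Chiifu at 22 °C replicate 1 the median in Chiifu was 2.45. The direction in gi changed with the scaling. When libraries were scaled by total counts and not by TMM, 45 members were lower at 37 °C in gi and 0 higher, but the median of all genes was then -0.68 and that of the members -0.47. In Chiifu the members were higher under both scalings (median 1.64 with total counts, where all genes had -1.05).

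In the model fitted to all genes (edgeR's quasi-likelihood test, Benjamini-Hochberg adjusted p under 0.05), 38 of 46 members were called higher by heat in Chiifu, where 18.2% of all genes tested were. For heat in gi edgeR called 0 members, higher or lower, against 16.2% and 14.2% of all genes; 1 member had an unadjusted p under 0.05, and DESeq2 called 1 member lower. Both contrasts were part of the rule, so these counts carry no weight. The label "only in wild type" goes further than the test of the difference: the heat by genotype interaction called 4 of the 46 members, all with a lower response in gi and 0 with a higher one, where it called 0.0485% and 0.0693% of all genes in these directions. For the other 42 the difference between the genotypes was a difference of means that did not pass this test.

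**Figure D2:**
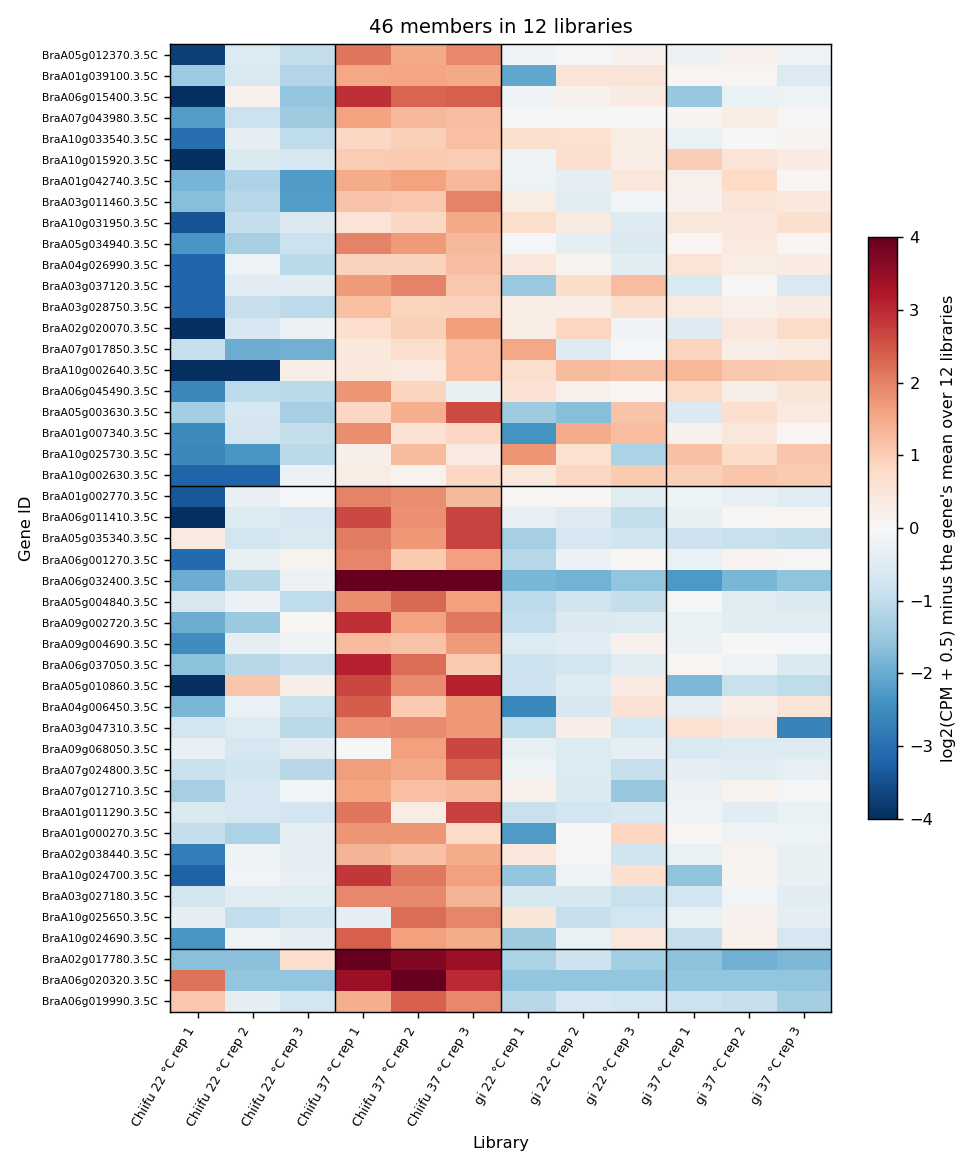
Level of each member (rows) in the 12 libraries (columns), as log2(CPM + 0.5) minus the member's mean over all libraries. Rows are split by the ratio of gi to Chiifu at 22 °C (at least 2, between, at most 0.5). The columns of Chiifu at 37 °C are red for most members, and Chiifu at 22 °C replicate 1 is the lowest of its group for 30.

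Members formed the low end of a continuous range. In Chiifu, 1398 genes met the wild-type parts of the rule, and 46 of them (3.29%) were members, 266 had a gi ratio between 1.5 and 4, and 1086 had a gi ratio of 4 or more. The median gi ratio of the 1352 others was 8.22, and their median Chiifu ratio was 9.16. The same rule with the genotypes exchanged, applied after the data were seen, chose 27 of the 1385 genes that met its gi parts (1.95%), and the interaction called 2 of these. At the limits, BraA05g004840.3.5C was the nearest inside with a gi ratio of 1.49, and BraA01g009230.3.5C, at 1.52, was the nearest outside. For the Chiifu ratio BraA07g012710.3.5C (4.19) was inside and BraA02g013510.3.5C (3.99) outside, and for the level BraA06g019990.3.5C (5.30 CPM) was inside and BraA06g016030.3.5C (4.77 CPM) outside.

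**Figure D3:**
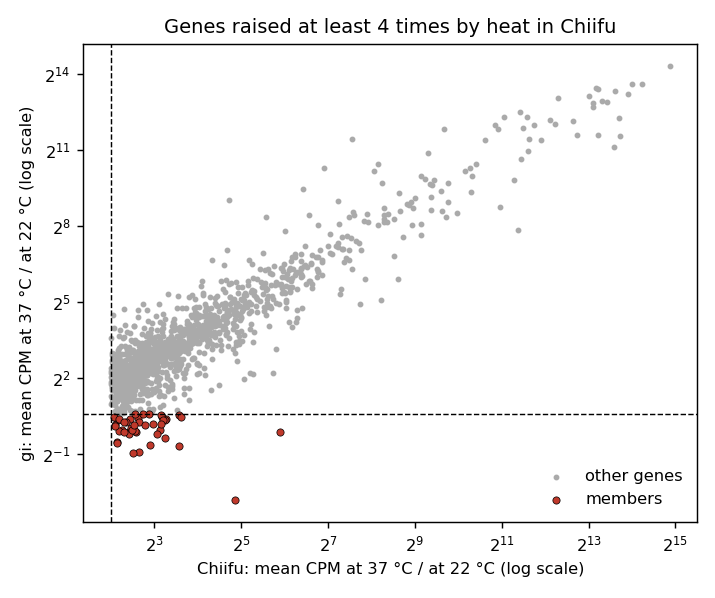
Ratio of mean CPM at 37 °C to 22 °C in Chiifu (x axis, log scale) and in gi (y axis, log scale) for 1392 of the 1398 genes that met the Chiifu parts of the rule and had a finite ratio above 0 in both. Red points are 45 members; dashed lines mark the limits of 4 and 1.5, and the members lie at the lower edge of the cloud with no gap to the other genes.

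The members called by the interaction differed in how gi compared with Chiifu. BraA06g032400.3.5C had 1.97, 4.05 and 7.81 CPM in Chiifu at 22 °C, 313, 229 and 280.5 CPM in Chiifu at 37 °C, 2.27, 2.14 and 2.81 CPM in gi at 22 °C, and 1.52, 2.27 and 2.73 CPM in gi at 37 °C. It was far above all other libraries in the 3 Chiifu libraries at 37 °C, and gi at 37 °C lay within the range of gi at 22 °C but for the lowest library. Its Chiifu rise was 59.5-fold, the largest among the members, with a log2 change of 5.89 (SE 0.49, edgeR adjusted p = 7.12e-06), and the interaction log2 was -6.04 (SE 0.61, adjusted p = 0.00299). This was the 1 member that the interaction called under each of the 18 alternatives run.

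BraA07g024800.3.5C had 4.47, 4.85 and 3.83 CPM in Chiifu at 22 °C, 29.0, 26.2 and 47.2 CPM in Chiifu at 37 °C, 7.70, 5.87 and 4.41 CPM in gi at 22 °C, and 6.79, 6.42 and 6.86 CPM in gi at 37 °C. The unheated gi libraries overlapped unheated Chiifu, and the heated ones lay above it and below every heated Chiifu library (interaction log2 -2.80, SE 0.36, edgeR adjusted p = 0.0179). BraA03g027180.3.5C had 3.198, 4.01 and 3.96 CPM in Chiifu at 22 °C, 22.7, 22.8 and 15.4 CPM in Chiifu at 37 °C, 3.48, 3.44 and 2.82 CPM in gi at 22 °C, and 3.11, 5.22 and 4.11 CPM in gi at 37 °C. For it gi at 37 °C overlapped Chiifu at 22 °C and stayed below every Chiifu library at 37 °C (interaction log2 -2.10, SE 0.33, edgeR adjusted p = 0.0470).

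BraA01g042740.3.5C was already higher in gi without heat. It had 9.31, 14.4 and 6.85 CPM in Chiifu at 22 °C, 99.2, 107 and 89.0 CPM in Chiifu at 37 °C, 30.2, 27.4 and 47.7 CPM in gi at 22 °C, and 39.9, 60.4 and 36.9 CPM in gi at 37 °C. All 6 gi libraries lay between the 2 Chiifu groups, and the interaction log2 was -2.89 (SE 0.44, edgeR adjusted p = 0.0376).

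The replicate number was taken to pair the gi and Chiifu libraries of a temperature, though the labels do not say what it marks. With it as a block the interaction called 1 member, BraA06g032400.3.5C, and with a block within each temperature it called 2. Of all genes, 0.0208% and 0.0139% were then called with a lower response in gi, against 0.0485% in the main fit. Without gi at 22 °C replicate 2, or gi at 37 °C replicate 1, 2 or 3, each left out alone, 1 member was called. Without gi at 22 °C replicate 3 the count was 2. In these runs 0.0101% to 0.0372% of all genes were called in that direction. Without Chiifu at 22 °C replicate 1 the count was 11 members, with 0.255% of all genes called in that direction. BraA07g024800.3.5C, BraA01g042740.3.5C and BraA03g027180.3.5C lost their call under 6, 13 and 16 of the 18 alternatives. DESeq2 called 22 members, where it called 0.829% of all genes in the same direction.

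**Figure D4:**
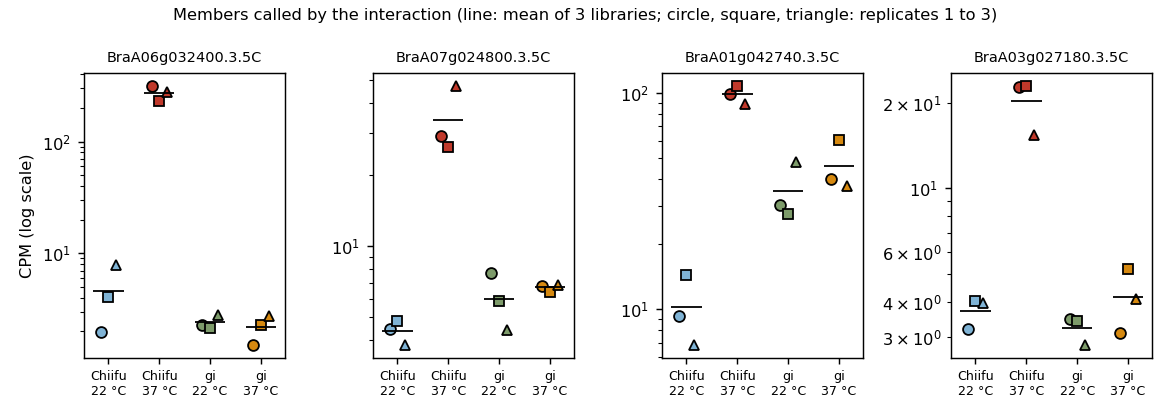
CPM (y axis, log scale, a separate range for each gene) of the 4 members called by the interaction, by group (x axis), with circles, squares and triangles for replicates 1 to 3 and a line for the mean. In all 4 the Chiifu libraries at 37 °C lie above every other library, and BraA01g042740.3.5C also shows gi above Chiifu at 22 °C.

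At 22 °C, before heat, gi tended to hold the members at a higher level than Chiifu did. The gi mean was above the Chiifu mean for 37 of 46 members, with a median ratio of 1.67 against 0.985 for all genes tested and 1.05 for the other genes raised in Chiifu. On the model's log2 scale the median difference of the members was 0.74, and 0.51 without Chiifu at 22 °C replicate 1. The rule favours a low Chiifu mean and a high gi mean at 22 °C, so this direction is in part set by the choice of members. The gi libraries lay above the Chiifu libraries without overlap for 15 members (9.76% of all genes) and below for 0 (10.7% of all genes). EdgeR called 2 members higher, BraA01g042740.3.5C and BraA03g011460.3.5C, and 0 lower, against 0.451% and 0.562% of all genes; with the replicate block it called 1, and with the block within each temperature 1 other. Without Chiifu at 22 °C replicate 1 the gi mean was above for 34 members, and edgeR called 5 higher, with 1.47% of all genes called so; it called 0 without gi at 22 °C replicate 1 or 2, and 1 without gi at 22 °C replicate 3, any single heated gi library or heated Chiifu replicate 1 or 2.

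BraA03g011460.3.5C, named here after its values were seen, had 8.04, 11.9 and 5.43 CPM in unheated Chiifu, 33.3, 19.99 and 25.4 CPM in unheated gi, 30.8, 38.7 and 36.6 CPM in heated gi and 61.0, 57.97 and 110 CPM in heated Chiifu. As in BraA01g042740.3.5C, all 6 gi libraries lay between the Chiifu groups. The log2 difference of gi from Chiifu at 22 °C was 1.63 (SE 0.33, edgeR adjusted p = 0.0479) for BraA03g011460.3.5C and 1.78 (SE 0.31, adjusted p = 0.0272) for BraA01g042740.3.5C. The first lost this call under 14 of 18 alternatives (highest adjusted p = 0.179) and the second under 6 (highest 0.0997).

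By this ratio 21 members had gi at least 2 times above Chiifu at 22 °C, 22 lay between, and 3 had gi at 0.5 times or below. Of the 21, 14 kept a ratio of at least 2 without Chiifu at 22 °C replicate 1. The first set had a median gi to Chiifu ratio of 0.486 at 37 °C (range 0.116 to 1.55), the second 0.198 (0.00791 to 0.366), and the third 0.00187 (0 to 0.0419). By rule Chiifu rose at least 4 times and gi at most 1.5 times in all of them, so the 2 ratios of a member are tied to each other. The rule set no limit on a fall in gi, where the lowest ratio was 0.139, for BraA02g017780.3.5C in the third set.

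**Figure D5:**
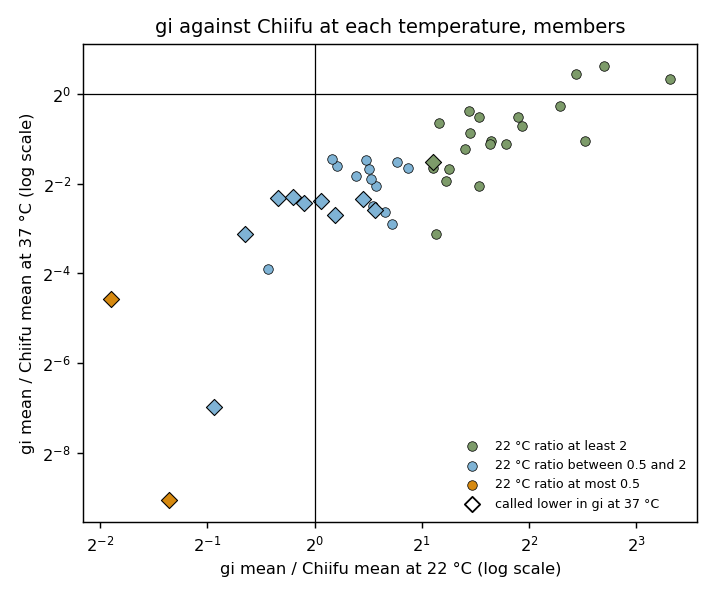
Ratio of gi to Chiifu mean CPM at 22 °C (x axis, log scale) and at 37 °C (y axis, log scale) for 45 members; the member at 0 counts in gi is not shown. Colours give the 3 sets by the 22 °C ratio and diamonds the members called lower in gi at 37 °C; all but 3 members lie below a ratio of 1 at 37 °C.

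The members with the highest ratio of gi to Chiifu at 22 °C overlapped in unheated gi with the level of heated Chiifu. BraA10g025730.3.5C had 0.265, 0.405 and 1.62 CPM in Chiifu at 22 °C, 4.84, 10.3 and 5.33 CPM in Chiifu at 37 °C, 14.9, 6.43 and 1.36 CPM in gi at 22 °C, and 9.59, 7.02 and 9.27 CPM in gi at 37 °C. Its gi libraries at 22 °C spread from below the highest Chiifu library at 22 °C to above every heated one. BraA01g007340.3.5C showed a similar spread in gi at 22 °C, with 0.195, 9.60 and 8.004 CPM, beside 3.57, 4.44 and 3.32 CPM in gi at 37 °C and 12.5, 4.88 and 5.88 CPM in Chiifu at 37 °C. For such members the gi mean at 22 °C rests on libraries that disagree.

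BraA10g002630.3.5C and BraA10g002640.3.5C, next to each other among the tested IDs, had 0 counts in replicates 1 and 2 of Chiifu at 22 °C and 3.48 and 12.1 CPM in replicate 3. In the other 9 libraries both were detected, at 4.58 to 9.53 CPM for the first and 13.5 to 26.5 CPM for the second. Heat in Chiifu was called for neither (edgeR adjusted p = 0.206 and 0.295), and both had a higher mean in gi than in Chiifu at 37 °C. A second neighbouring pair, BraA10g024690.3.5C and BraA10g024700.3.5C, had 0 counts in replicate 1 of Chiifu at 22 °C, and 12.5, 7.37 and 6.49 CPM and 33.1, 19.7 and 14.0 CPM in Chiifu at 37 °C. In gi at 37 °C this pair had 0.823, 2.36 and 1.08 CPM and 1.05, 4.56 and 3.34 CPM, and heat in Chiifu was called for neither (adjusted p = 0.0584 and 0.0558). No sequences were at hand, and whether the genes of a pair are alike enough to affect each other's counts was not tested. Each pair need not be 2 separate responses.

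After heat, gi lay below Chiifu for most members. The gi mean at 37 °C was below the Chiifu mean for 43 of 46 members, with a median ratio of 0.314 against 0.982 for all genes tested and 0.879 for the other genes raised in Chiifu. The 3 Chiifu libraries lay above the 3 gi libraries without overlap for 38 members, a pattern found in 15.3% of all genes tested. EdgeR called 12 members lower in gi and 0 higher, against 1.40% and 1.29% of all genes. Among the 12 were BraA06g032400.3.5C, BraA07g024800.3.5C and BraA03g027180.3.5C of the interaction calls, with log2 differences of -6.98 (SE 0.51), -2.35 (SE 0.26) and -2.29 (SE 0.24), whereas BraA01g042740.3.5C was not called there (adjusted p = 0.0780). The rule required a rise of at least 4 times in Chiifu and allowed at most 1.5 times in gi. For each member with counts in gi, this fixed a lower gi to Chiifu ratio at 37 °C than at 22 °C. The direction is thus largely set by the choice, and the genes compared did not have to meet the gi limit. The count was 5 without gi at 37 °C replicate 2 or 3, 6 without replicate 1 of that group, 26 without Chiifu at 22 °C replicate 1, a library outside that contrast, and 26 with DESeq2. The share of all genes called lower moved the same way. It was 0.412%, 0.354% and 0.564% without gi at 37 °C replicates 2, 3 and 1. Without Chiifu at 22 °C replicate 1 it was 3.53%, and with DESeq2 it was 5.15%.

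Of the 4 members with the lowest gi to Chiifu ratios at 37 °C, 1 was BraA06g032400.3.5C, given above, with 59, 72 and 111 counts in heated gi, and the other 3 had 0 to 12 counts in each heated gi library. BraA06g020320.3.5C had 0 counts in all 6 gi libraries and in replicates 2 and 3 of Chiifu at 22 °C, 6.23 CPM in replicate 1 of that group, and 15.3, 23.2 and 11.1 CPM in Chiifu at 37 °C. Against a floor of 3 counts per library it was at least 202-fold lower in gi at 37 °C, but the difference was not called (edgeR adjusted p = 0.128), nor was its rise in Chiifu (adjusted p = 0.277). BraA02g017780.3.5C had 4, 0 and 2 counts in the gi libraries at 37 °C and 0.284, 0.564 and 0.244 CPM in gi at 22 °C, beside 0.0994, 0.0945 and 2.61 CPM in Chiifu at 22 °C and 37.0, 24.3 and 19.9 CPM in Chiifu at 37 °C. Its rise in Chiifu was 28.9-fold, a log2 change of 4.84 (edgeR adjusted p = 0.00698) that became 8.04 without Chiifu at 22 °C replicate 3, which held most of the unheated counts. It was called lower in gi at 37 °C (edgeR adjusted p = 0.0119), a call lost under 3 of the 18 alternatives. BraA06g019990.3.5C, also called lower in gi at 37 °C (edgeR adjusted p = 0.0188), had 0.309, 0.283 and 0.0738 CPM there. In heated Chiifu it had 3.54, 7.31 and 5.04 CPM, with no overlap. It lost this call under 5 of the 18 alternatives, and the call of its rise in Chiifu under 10. Its gi mean was 0.269 times the Chiifu mean already at 22 °C.

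Members with the highest CPM, a value that also grows with transcript length, rose several-fold in Chiifu from a level that varied widely. BraA01g002770.3.5C had 108, 913 and 1102 CPM in Chiifu at 22 °C, 4443, 4120.2 and 2762 CPM in Chiifu at 37 °C, 1162, 1184 and 812 CPM in gi at 22 °C, and 985, 908 and 819 CPM in gi at 37 °C. Its gi libraries lay near replicates 2 and 3 of unheated Chiifu, while replicate 1 was far lower, and without that replicate the 5.33-fold rise became 3.75-fold (edgeR adjusted p with all libraries 0.0139). BraA05g012370.3.5C had 24.5, 226 and 169.6 CPM in Chiifu at 22 °C and 1466, 955 and 1255 CPM at 37 °C, with 289, 322 and 373 CPM and 281, 376 and 294 CPM in gi. For it the rise was 8.76-fold with replicate 1 and 6.20-fold without, and all 6 gi libraries lay between the Chiifu groups.

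BraA07g043980.3.5C had closely spaced values in gi at 22 °C, 431, 433 and 431 CPM, and 462, 531 and 443 CPM at 37 °C. In Chiifu it had 92.0, 239 and 160.3 CPM and 1317, 1054 and 1012 CPM, a log2 change of 2.79 (SE 0.32, edgeR adjusted p = 8.72e-05), and gi again lay between the Chiifu groups. BraA01g039100.3.5C had 147, 261 and 179 CPM in Chiifu at 22 °C, 1165, 1207 and 1152 CPM in Chiifu at 37 °C, 94.6, 592 and 573 CPM in gi at 22 °C, and 426, 426 and 276 CPM in gi at 37 °C. Its heated Chiifu libraries were close to each other, whereas replicate 1 of gi at 22 °C stood below all Chiifu libraries. BraA06g011410.3.5C rose from 9.28, 106 and 97.8 CPM to 972, 557 and 1016 CPM in Chiifu (11.95-fold, or 8.33-fold without replicate 1 at 22 °C), with 123, 108 and 79.9 CPM and 125, 159 and 166 CPM in gi, where the unheated libraries overlapped unheated Chiifu.

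Among the members with the largest Chiifu ratios, BraA06g037050.3.5C rose from 6.74, 9.88 and 11.2 CPM to 194, 104 and 45.4 CPM (12.3-fold, edgeR adjusted p = 0.000191). In gi it had 11.96, 13.0 and 16.3 CPM at 22 °C and 23.0, 19.4 and 14.5 CPM at 37 °C, all below the lowest heated Chiifu library. BraA06g015400.3.5C rose from 7.01, 219 and 65.1 CPM to 1448, 963 and 1019.6 CPM in Chiifu. In gi it went the other way, from 175, 217 and 243 CPM to 66.5, 161 and 169 CPM, with no overlap between the temperatures. This opposite order, with no overlap in either genotype, was seen in 4 of the 46 members and in 0.326% of all genes tested. In gi alone, 27.3% of all genes lay lower at 37 °C without overlap. In 6 members gi at 37 °C lay above gi at 22 °C without overlap, as in 25.5% of all genes. The rule fixed the Chiifu order and limited the rise in gi, so nothing is read from these counts.

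Across all members, the 6 gi libraries lay below the lowest heated Chiifu library in 34, as in 7.63% of all genes tested. In 9 of these they also lay above the highest unheated one, as in 0.263% of all genes. The rule favours both orders. The spread between replicates was wide in unheated Chiifu, where the median coefficient of variation of the members was 68.4%, against 31.7% in heated Chiifu, 28.7% in unheated gi and 16.3% in heated gi. Genes tested with a group mean of at least 5 CPM had medians of 21.9%, 15.8%, 14.6% and 14.2%. Without Chiifu at 22 °C replicate 1 the median in unheated Chiifu was 22.5% for the members and 9.65% for such genes (n = 2). Without that library 13 members had a Chiifu ratio under 4.

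The genes were also chosen anew without 1 library, and a ratio was taken with that library on one side. The other side of each ratio had served the choice, which favours meeting the limit, and the levels used the scaling of all 12 libraries. All genes tested were not chosen in this way, so the shares beside them are not a like comparison. Leaving out replicate 1, 2 or 3 of Chiifu at 37 °C chose 55 genes each time. In the library left out, 36, 37 and 39 of these stood at least 4 times above the Chiifu mean at 22 °C, as 6.89%, 7.22% and 7.5% of all genes tested did; the unheated libraries in that ratio had served the choice. Leaving out replicate 1, 2 or 3 of Chiifu at 22 °C chose 54, 66 and 61 genes, and the heated Chiifu mean was at least 4 times the library left out in 30, 34 and 33 of them, against 12.4%, 9.86% and 8.31% of all genes. Most genes tested, raised by heat or not, met the gi limit, so a comparison with them cannot decide how well the gi part holds. Among the 1398 genes that met the Chiifu parts of the rule, 3.29% were members, by the means of all libraries. Of the genes chosen without replicate 1, 2 or 3 of unheated gi, 21 of 46, 36 of 43 and 27 of 46 had a gi mean at 37 °C of at most 1.5 times the library left out, against 68.4%, 71.2% and 75.3% of all genes. For gi at 37 °C replicates 1, 2 and 3 the counts were 36 of 50, 35 of 46 and 39 of 45, against 74.7%, 75.1% and 75.8%. The share was below that of all genes for replicates 1 and 3 of unheated gi and near it for replicates 1 and 2 of heated gi. It was above it for replicate 2 of unheated and replicate 3 of heated gi. The genes raised in Chiifu were not compared in this way, so nothing is read from the counts of either part.

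By their IDs the members lay on 9 chromosomes. A10 held 9 of them (19.6%, against 7.66% of the genes tested and 9.66% of the genes raised in Chiifu), A06 held 8, A01 and A05 held 6 each, and A08 held 0. The only neighbours with at most 4 tested genes between them were the 2 pairs on A10 given above. The 2 tested genes on either side of BraA06g032400.3.5C went another way. Of these, BraA06g032380.3.5C had means of 34.1 and 228 CPM at 22 °C and 37 °C in Chiifu, and of 56.3 and 283 CPM in gi, while the other 3 had lower means at 37 °C than at 22 °C in both genotypes. None of the 16 tested genes beside the 4 members was called by the interaction (edgeR).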

How the data were processed

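The authors deposited 1 table of raw counts per library, whole reads per gene ID without normalization. The submitters' processing notes list the tools FastQC, TopHat2, HTSeq and edgeR and give no version. Build, annotation and strand setting are not given in the sources used here. Per the labels' protocols, libraries were made with the TruSeq Stranded mRNA LT kit. Each table ends in 5 summary lines that name no gene, which were removed; of the aligned reads, 89.9% to 91.6% were in genes. The tests ran on the counts as deposited, with edgeR 4.0.16 under R 4.3.3: filterByExpr by the 4 groups (minimum count 10, minimum total 15), TMM, 1 quasi-likelihood fit to 12 libraries (robust), 5 contrasts, Benjamini-Hochberg over 28846 genes. DESeq2 1.42.0, other scalings, no filter, replicate blocks and leaving out each library were alternatives. The procedure was tested on simulated data. A floor of 3 counts was 0.0377 to 0.0964 CPM per library and covers counting error only, since reads are not independent molecules.

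No pair of replicates agreed within sampling noise (chi-square per degree of freedom 14.9 to 353). Deviations from group means of gi and Chiifu libraries with the same replicate number had correlations of 0.271, 0.196 and 0.158 in the unheated libraries. In the heated libraries they were 0.365, 0.115 and 0.178. Each was over 0.1, so the numbers, which come from the labels, were taken to pair them. Differently numbered libraries had correlations of -0.216 to 0.101 in the unheated and -0.323 to 0.216 in the heated libraries. The 0.216, of heated gi replicate 2 with heated Chiifu replicate 3, lay above the 0.115 and 0.178 of matched numbers. The values thus do not single out the replicate number as the pairing. Members and lists were chosen with earlier results of these data known. Members named are the 6 with the highest heated Chiifu mean, the 6 with the largest Chiifu ratio, those called by the interaction, the 4 with the highest gi to Chiifu ratio at 22 °C and the 4 with the lowest at 37 °C, those nearest the limits, and neighbouring IDs.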

Additional observations from a re-analysis of the deposited data

Results flagged for a closer look

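The heat response differed between the genotypes by the interaction test in 4 members, which were chosen for such a difference. The interaction log2 was -6.04 for BraA06g032400.3.5C (edgeR adjusted p = 0.00299), -2.80 for BraA07g024800.3.5C (0.0179), -2.89 for BraA01g042740.3.5C (0.0376) and -2.10 for BraA03g027180.3.5C (0.0470). Over 18 alternatives the highest adjusted p was 0.0304, 0.0821, 0.184 and 0.199 in that order.

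In 4 members every gi library at 37 °C lay below every gi library at 22 °C while the Chiifu libraries lay the other way, a difference not tested as such; the heat change in gi was called for none of the 4 (edgeR). The gi log2 change was -0.68 (SE 0.82, adjusted p = 0.573) for BraA06g015400.3.5C and -0.57 (SE 0.47, adjusted p = 0.402) for BraA10g033540.3.5C. It was -0.97 (SE 0.98, adjusted p = 0.491) for BraA05g010860.3.5C and -2.72 (SE 1.45, adjusted p = 0.184) for BraA02g017780.3.5C. The last had 63 counts over the 3 gi libraries at 22 °C and 6 at 37 °C.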

How the results depend on the processing

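The rule chose 43 to 66 genes when single libraries were left out, 20 with total counts in place of TMM (15 of them among the 46), 14 with a Chiifu ratio of at least 8, 29 with a gi ratio of at most 1.2 and 76 with one of at most 2. Without Chiifu at 22 °C replicate 1 it chose 54, of which 33 were among the 46; 17 members were chosen in all 12 such runs. Members called higher by heat in Chiifu numbered 34 to 42 without single libraries and 25 with total counts. Of all genes, 14.1% to 17.9% were called higher without single libraries and 7.18% with total counts, against 18.2% in the main fit. Heat in gi gave 0 to 1 (1 without gi or Chiifu at 22 °C replicate 3), and 1 with DESeq2. In the directions of these calls, 13.8%, 13.9% and 17.3% of all genes were called. The interaction gave 1 to 11 without single libraries, 2 with total counts, 1 with the replicate block, 2 with the block within each temperature and 22 with DESeq2. In the same direction it called 0.0101% to 0.255%, 0.0243%, 0.0208%, 0.0139% and 0.829% of all genes. Members called lower in gi at 37 °C numbered 5 to 26 without single libraries, 26 with DESeq2, and 10 with either block. Of all genes, 0.354% to 3.53%, 5.15%, and 0.919% or 0.981% were called lower there. Members called different in gi at 22 °C numbered 0 to 5 without single libraries, 1 with DESeq2 size factors, 0 with total counts, 1 with either replicate block and 9 with DESeq2. Of all genes, 0.115% to 1.47% were called higher there without single libraries, and 0.169% to 0.989% lower. The shares higher and lower were 0.388% and 0.562% with DESeq2 size factors and 0.277% and 0.634% with total counts. They were 0.257% and 0.277% with the replicate block, 0.139% and 0.201% with the block within each temperature, and 2.41% and 3.02% with DESeq2. The cause of these changes was not tested. The blocks moved no other count by more than 1.5 times. For members at 0 counts in a group only a lower bound of the fold can be given.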
